A study of Homo sapiens with 4 samples.

Results

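The 10 genes described here code for proteins by which monocytes are recognised and by which they sense bacteria: CD14, LY96, TLR4, TLR2, MYD88, S100A8, S100A9, FCN1, CD68 and CD86. They were given as a list of monocyte markers and of genes for sensing lipopolysaccharide (LPS), with no measured value of theirs in the rule, and are 10 of the 20037 protein-coding genes in the GRCh38.p14 annotation. H3K27Ac is a histone acetylation found where enhancers and promoters are active, and its profile was taken in MOLM13, a human acute myeloid leukemia (AML) cell line with a rearranged MLL1 gene. There was 1 library of control cells and 1 of cells exposed to 500 nM of SNDX-50469, a Menin inhibitor, for 16 h. The control library carries no treatment in its labels, while the treatment description names a DMSO arm, and 2 further libraries, the inputs of these conditions, were not analysed here. Both libraries come from this 1 cell line and have no replicate, so no difference has a replicate check, there is no test and no p-value. The Wilson 95% intervals below cover counting error only. The authors called broad peaks in each library separately. The length covered by peaks in base pairs (bp) was measured over each gene and 5 kb on both sides, called the window. The kept share is the part of the control covered length that was also covered after treatment. LY96 lies on chromosome 8, which held 41.9% of all peaks of the SNDX-50469 list and 10.5% of those of the control list, so sums are also given without it.

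CD14 on the surface of a monocyte takes up LPS and passes it to TLR4, whose partner MD-2 is the product of LY96 and holds the LPS molecule. TLR2 senses bacterial lipoproteins, and both receptors signal through the adaptor MYD88, which leads to NF-kB. S100A8 and S100A9 form calprotectin, an abundant protein of the cytoplasm of monocytes and neutrophils that can itself stimulate TLR4 when released. FCN1 codes for M-ficolin, a lectin that binds microbial sugars, CD68 is a lysosomal protein of monocytes and macrophages, and CD86 gives T cells their costimulatory signal through CD28.

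RefSeq promoters were found for 9 of the 10 members, LY96 being the exception. The 4 shown here are those of the LPS receptor genes CD14 and TLR4, of their adaptor MYD88, and of CD68, because the cover of these promoters differed. Each is the 250 bases before the annotated start in GRCh38.p14, 5′ to 3′ in the direction of transcription. Capitals mark matches, on either strand, to GAGGAA (PU.1/ETS), TGTGGT (RUNX), CNGTTG (MYB), TTGCNNAA (C/EBP), TGANTCA (AP-1), GGGNNTTTC (NF-kB) or GAAANNGAA (IRF). The CD14 stretch is chr5:140633176-140633425 on the minus strand, and the TLR4 stretch is chr9:117704153-117704402 on the plus strand. MYD88 is shown at chr3:38138411-38138660 and CD68 at chr17:7579388-7579637, both on the plus strand.
CD14: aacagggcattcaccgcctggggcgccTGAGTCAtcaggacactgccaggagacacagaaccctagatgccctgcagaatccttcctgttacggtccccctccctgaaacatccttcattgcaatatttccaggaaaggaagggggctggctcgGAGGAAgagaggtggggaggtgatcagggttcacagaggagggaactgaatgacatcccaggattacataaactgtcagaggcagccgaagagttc
TLR4: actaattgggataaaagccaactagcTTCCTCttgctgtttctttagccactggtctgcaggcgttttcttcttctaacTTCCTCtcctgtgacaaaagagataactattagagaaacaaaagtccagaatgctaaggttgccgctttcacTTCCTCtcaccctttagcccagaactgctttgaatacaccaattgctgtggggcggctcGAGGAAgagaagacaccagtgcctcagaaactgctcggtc
MYD88: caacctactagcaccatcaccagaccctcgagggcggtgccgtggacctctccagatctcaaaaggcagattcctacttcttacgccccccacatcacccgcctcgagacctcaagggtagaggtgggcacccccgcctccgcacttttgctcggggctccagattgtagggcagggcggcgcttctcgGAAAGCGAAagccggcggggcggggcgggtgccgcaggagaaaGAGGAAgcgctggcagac
CD68: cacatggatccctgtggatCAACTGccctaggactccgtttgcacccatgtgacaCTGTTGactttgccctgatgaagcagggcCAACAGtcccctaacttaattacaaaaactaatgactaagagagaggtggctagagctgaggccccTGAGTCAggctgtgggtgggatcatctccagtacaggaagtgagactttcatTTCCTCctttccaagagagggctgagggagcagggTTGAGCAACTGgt
In control, peaks covered 163 of the 250 bases at CD14, none at TLR4, and all 250 at MYD88 and at CD68. After SNDX-50469 none of these bases was covered at CD14, TLR4 or MYD88, and 3 were covered at CD68, next to its start. The TLR4 promoter held 4 matches to GAGGAA, and the CD14, MYD88 and CD68 promoters held 1 each. CD68 had matches to 4 of the 7 motifs, where its C/EBP match overlaps a MYB match just before the start.

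A match in these letters is a description and not a shown binding site. Over the whole promoter windows, with 50 bases after the start added, GAGGAA was found at 8 of the 9 members in the table, with TLR2 as the exception, and in 28.0% of all 21987 promoters of the table. The members hold more than 1 window where they have more than 1 start, 3 overlapping ones at S100A8 and 2 at CD86, so this count is over genes and the share over windows. NF-kB matches were found at 2 members, S100A9 and CD86, against 4.81% of promoters. AP-1 matches were found at 2, CD14 and CD68, against 6.16%, RUNX matches at 2, S100A9 and CD86, against 11.3%, and IRF matches at 2, MYD88 and S100A8, against 7.09%. MYB matches were found at 2, FCN1 and CD68, against 32.4%, and a C/EBP match at 1, CD68, against 8.67%. CpG dinucleotides numbered 33 at TLR2 and 25 at MYD88, against a median of 21 over all promoters, and 8 or fewer at each of the other 7 members.

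All 10 members had at least 1 peak in the control list, where 78.0% of all protein-coding genes had one. A SNDX-50469 peak was found at 6 members, LY96, TLR4, CD68, CD86, CD14 and MYD88, while 52.1% of all genes had one. The covered length was at least 2-fold lower after treatment at all 10 members, a mark met by 93.7% of the genes with a control peak. At 4 members, TLR2, S100A8, S100A9 and FCN1, none of the control cover was kept, which was the case at 44.8% of those genes. These shares leave the 10 genes near the background, and the treated list covered less of the genome altogether, with 29.4 Mb in 54061 peaks against 224.2 Mb in 245875 peaks in control.

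The median kept share of the members was 1.98%, beside 2.37% over all protein-coding genes with a control peak. Summed over the 10 windows, the covered length was 177950 bp in control and 30126 bp after SNDX-50469, and 13.4% of the control cover was kept, beside 11.6% over all genes. LY96 alone made 18146 bp of the treated cover. Without it, the other 9 members went from 125999 to 11980 bp with 9.27% kept, beside 10.6% over all genes off chromosome 8. Without TLR4 as well, 4.06% was kept. TLR4 had the largest kept share of the 10, so leaving it out could only lower the sum, and no background was computed for that choice. Between the members the kept share ran from 0 to 35.0%, and 3 genes, TLR4, CD68 and LY96, stood apart from the other 7, which kept at most 2.90%. The split depended on the measure. With only peaks of a −log10 q of at least 5, TLR4 and CD68 kept none of their control cover and LY96 kept 12.4%. By the share of control peaks kept, TLR4 and CD14 were level, at 22.2% each.

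**Figure D1:**
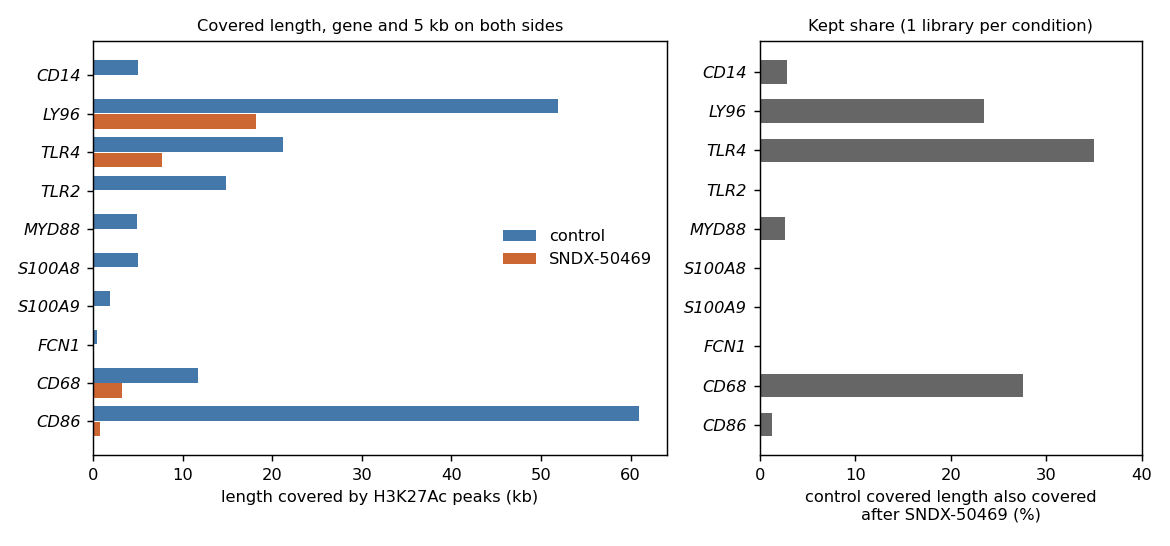
Length covered by H3K27Ac peaks in kb over each gene and 5 kb on both sides in control (blue) and after SNDX-50469 (orange), and the share of the control cover in percent that was kept (grey bars), 1 library per condition. Only TLR4, CD68 and LY96 kept more than 2.90% of their control cover, and CD86 had the longest control cover and 1.26% kept.

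The lists were cut at different strengths, which bears on every count above. The smallest −log10 p of a control peak was 2.68 and that of a SNDX-50469 peak was 3.93, so the control list holds weaker peaks. The files give no read totals, and the depth of the libraries is unknown. Of the 132 control peaks at the members, 34 shared at least 1 bp with a treated peak, which is 25.8% (19.1 to 33.8%). In the windows of all protein-coding genes it was 8.88% of 168209 control peaks. LY96 held 25 of the 34, and without it 9 of 73 were shared, or 12.3% (6.62 to 21.8%). Of the 27 control peaks that reached the treated cutoff of 3.93, 12 were shared, which is 44.4% (27.6 to 62.7%), beside 31.6% of 32014 such peaks in the windows of all protein-coding genes. Without LY96 it was 9 of 23, or 39.1% (22.2 to 59.2%). When only the strongest control peaks were used, up to the same summed length as the treated list, 3632 were left, with a −log10 p of at least 10.03. The treated list was still cut at 3.93. Then 8 members had no control peak left, and CD14, TLR4, MYD88 and CD86 had cover in the SNDX-50469 list alone. With cutoffs this unequal, any treated peak at these 8 had to stand alone, so this shows no gain of cover. Under that choice the covered length of CD68 was still lower after treatment, 29.1% of control, and that of LY96 was 95.9% of control. Of the peaks at the members, 7 in control, at CD14, LY96, TLR4, CD68 and CD86, and 1 after treatment, at LY96, had a −log10 q of at least 5.

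TLR4, the signalling receptor for LPS, lies at chr9:117704403-117724735 on the plus strand in hg38. In control, 9 peaks covered 21220 bp, 70.0% of its window, and after SNDX-50469, 4 peaks covered 7723 bp, or 25.5%. It kept 35.0% (7419 bp), the largest share of the 10 by length over this window, and 2 of 9 control peaks were shared. The order depends on the measure, since CD68 led over the gene body alone, with 56.5% against 37.1% at TLR4, and by the share of control peaks kept, with 66.7% against 42.4% at LY96 and 22.2% at TLR4. The treated cover lay away from the start of the gene. Within 1 kb of the start 1375 bp were covered in control and none after treatment, within 5 kb 3515 bp and none, and over the rest of the window 17705 and 7723 bp, with 41.9% kept. The control list had a peak of 10535 bp over the last part of the gene and beyond its end, with a fold of 5.01 over the background of its library, and one of 5465 bp before it. Treated peaks covered 53.5% of the first and 32.7% of the other. The widest treated peak, of 3778 bp, had a fold of 5.31 over the treated background and rank 1232 of 54061 peaks in its list. It lay 12.0 to 15.7 kb after the start, inside the gene. The widest control peak stood at rank 8669 of 245875 by fold, and ranks of different lists are not on 1 scale.

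TLR4 was also the most isolated of the members. Over 1 Mb on each side, the gene included, control peaks covered 1.43% of positions and treated peaks 0.393%, and 4 of the 6 treated peaks of that region lay in the TLR4 window. Over 5 Mb on each side 8.38% of the control cover was kept, and over the whole of chromosome 9 it was 7.07%. Among 1090 genes whose control covered length was within 20% of that of TLR4, 93.9% kept a smaller share. The same comparison, each with genes of like control covered length, gave 92.55% at LY96 and 81.1% at CD68. The genes compared with LY96 came from all chromosomes and not from chromosome 8 alone. Protein-coding genes with a control peak had a median kept share of 15.4% on chromosome 8 and 1.90% off it.

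CD14, the LPS co-receptor, lies at chr5:140631732-140633701 on the minus strand, inside the annotated span of TMCO6. In control it had 9 peaks over 5032 bp, 42.0% of the window, and after treatment a single peak of 146 bp that covered 1.22%. The kept share was 2.90%, the covered length was 34.5-fold lower, and 2 of 9 control peaks were shared. With 20 kb on both sides in place of 5 kb, 1170 of 13928 bp were kept, or 8.40%. Near its start nothing was left, with 830 bp within 1 kb in control and none after treatment. The strongest control peak, of 2011 bp and a fold of 5.37, began 5255 bp upstream of the start, with only 272 bp inside the window. After treatment 397 bp of it, 19.7%, were covered, all outside the window. A weaker control peak of 2739 bp lay from 2121 bp upstream outward, and the 146 bp of the treated list lay within it, 2196 bp upstream. Over 1 Mb on each side 7.91% of the control cover was kept, and over chromosome 5 7.90%. Among genes whose control covered length was within 20% of that of CD14, the median kept share was 5.40%.

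LY96, whose product MD-2 binds LPS within the TLR4 complex, lies at chr8:73991392-74099857 on the plus strand. Its window held 59 control peaks over 51951 bp, 43.9% of positions, and 41 treated peaks over 18146 bp, 15.3% of positions. The kept share was 23.4% (12181 bp), and 25 of 59 control peaks were shared, 42.4% (30.6 to 55.1%). For patient-derived AML cells, the paper reports more accessible chromatin at LY96 after SNDX-50469. That was another assay in other cells, and accessibility was not tested here. This gene had 41 of the 51 treated peaks of all members, and the only treated peaks that were absent from control, 5 of the 41. Most of its peaks in both lists were short and weak, with median widths of 406 and 392 bp and median folds of 3.02 and 3.70, each over its own background. There was 1 strong peak in each list at the same place. The control peak of 18912 bp had a fold of 7.70 and lay 51.9 to 70.8 kb after the start, inside the gene, and 37.4% of it was covered after treatment. The strongest treated peak, of 2352 bp, had a fold of 6.82, a −log10 q of 7.38 and rank 323 in its list, and lay 59.7 to 62.1 kb after the start.

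Kept shares around LY96 were near its own, and the part of the surroundings in its kept share was not tested. Over 1 Mb on each side, control peaks covered 17.2% of positions and treated peaks 9.29%, over 5 Mb 9.04% and 5.70%, and over all of chromosome 8 16.6% and 6.58%, with kept shares of 21.7, 18.2 and 19.3%. The covered length itself fell less there than in the LY96 window. After treatment it was 34.9% of control in the window, 39.65% over all of chromosome 8, 53.9% over 1 Mb and 63.0% over 5 Mb. Over those 5 Mb on each side the treated peaks, 1564, outnumbered the control peaks, 1334. On the chromosomes of the other members the treated cover was at most 1.15%. Of the treated peaks within 1 Mb of LY96, 56.9% were absent from control, beside 12.2% in its own window. Control peaks covered 43.9% of the window and 17.2% over 1 Mb, so treated peaks had more control cover to meet in the window. Over the protein-coding genes of chromosome 8, 715 in all, the median kept share was 15.4%. Along LY96 the kept share was 32.3% between 40 and 75 kb after the start, where the strong peaks lie, 29.2% in the first 5 kb, and 10.7% from 75 kb to the end of the gene.

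**Figure D2:**
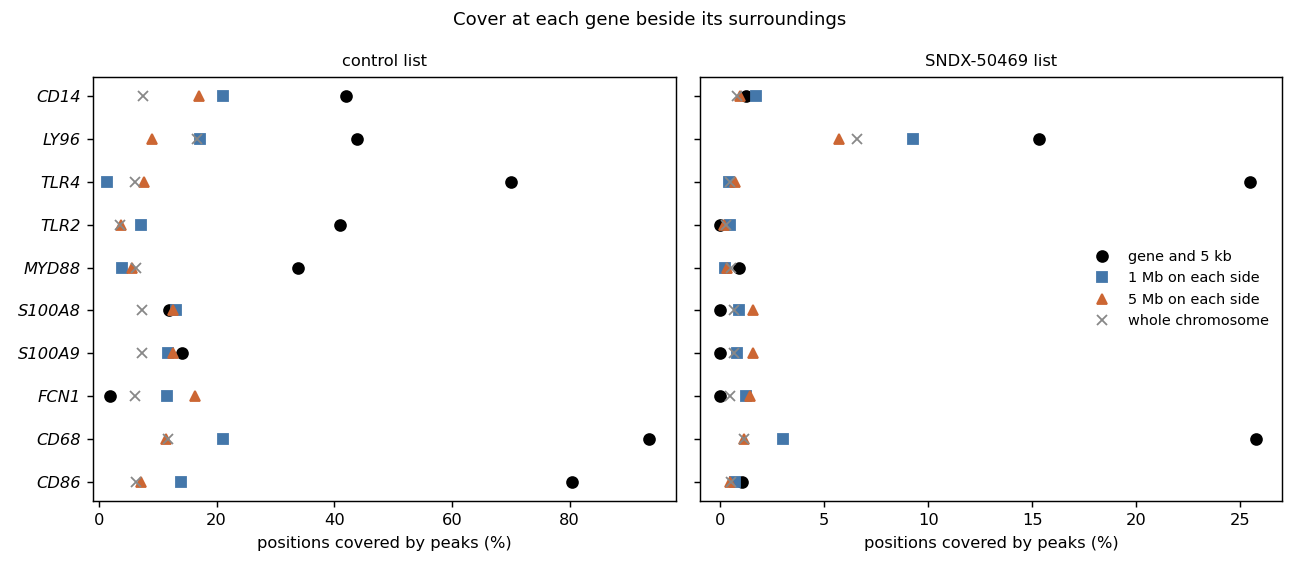
Share of positions covered by peaks in percent, in control (left) and after SNDX-50469 (right), over each gene and 5 kb on both sides (black), 1 Mb (blue) and 5 Mb (orange) on each side, and the whole chromosome (grey crosses). After treatment LY96 had 15.3% in its window and stood in covered surroundings, 9.29% over 1 Mb. TLR4 and CD68 had 25.5% and 25.7% in their windows, above surroundings of 0.393% and 3.02% over 1 Mb.

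TLR2, the receptor for bacterial lipoproteins, lies at chr4:153684280-153710637 on the plus strand. It had 12 control peaks over 14887 bp, 40.9% of the window, and no peak after treatment, so that 0 of 12 control peaks were shared (0 to 24.2%). One control peak of 1468 bp spanned the start, with a fold of 4.41, and one of 8537 bp lay over the end of the gene. Of its control peaks 4 reached the treated cutoff of 3.93, and none of these was shared. No other member with that much control cover kept nothing, and among 1630 genes of like control covered length, within 20%, 18.1% kept none. RNF175 runs into the same window from the other side, and its own window went from 32857 bp to none.

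MYD88, the adaptor that TLR4 and TLR2 share, lies at chr3:38138661-38143022 on the plus strand. Its 7 control peaks covered 4869 bp, 33.9% of the window, and its single treated peak covered 131 bp, or 0.912%. The kept share was 2.69%, and 1 of 7 control peaks was shared (2.57 to 51.3%). In control a peak of 2249 bp spanned the start and covered all 2001 positions within 1 kb of it. The 131 bp of the treated list lay inside that stretch, 234 to 364 bp after the start, so 6.55% was kept there. The start of ACAA1, which codes for a peroxisomal thiolase, lies 1534 bp away on the other strand, inside the same window, and the same 131 bp count for both genes.

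**Figure D3:**
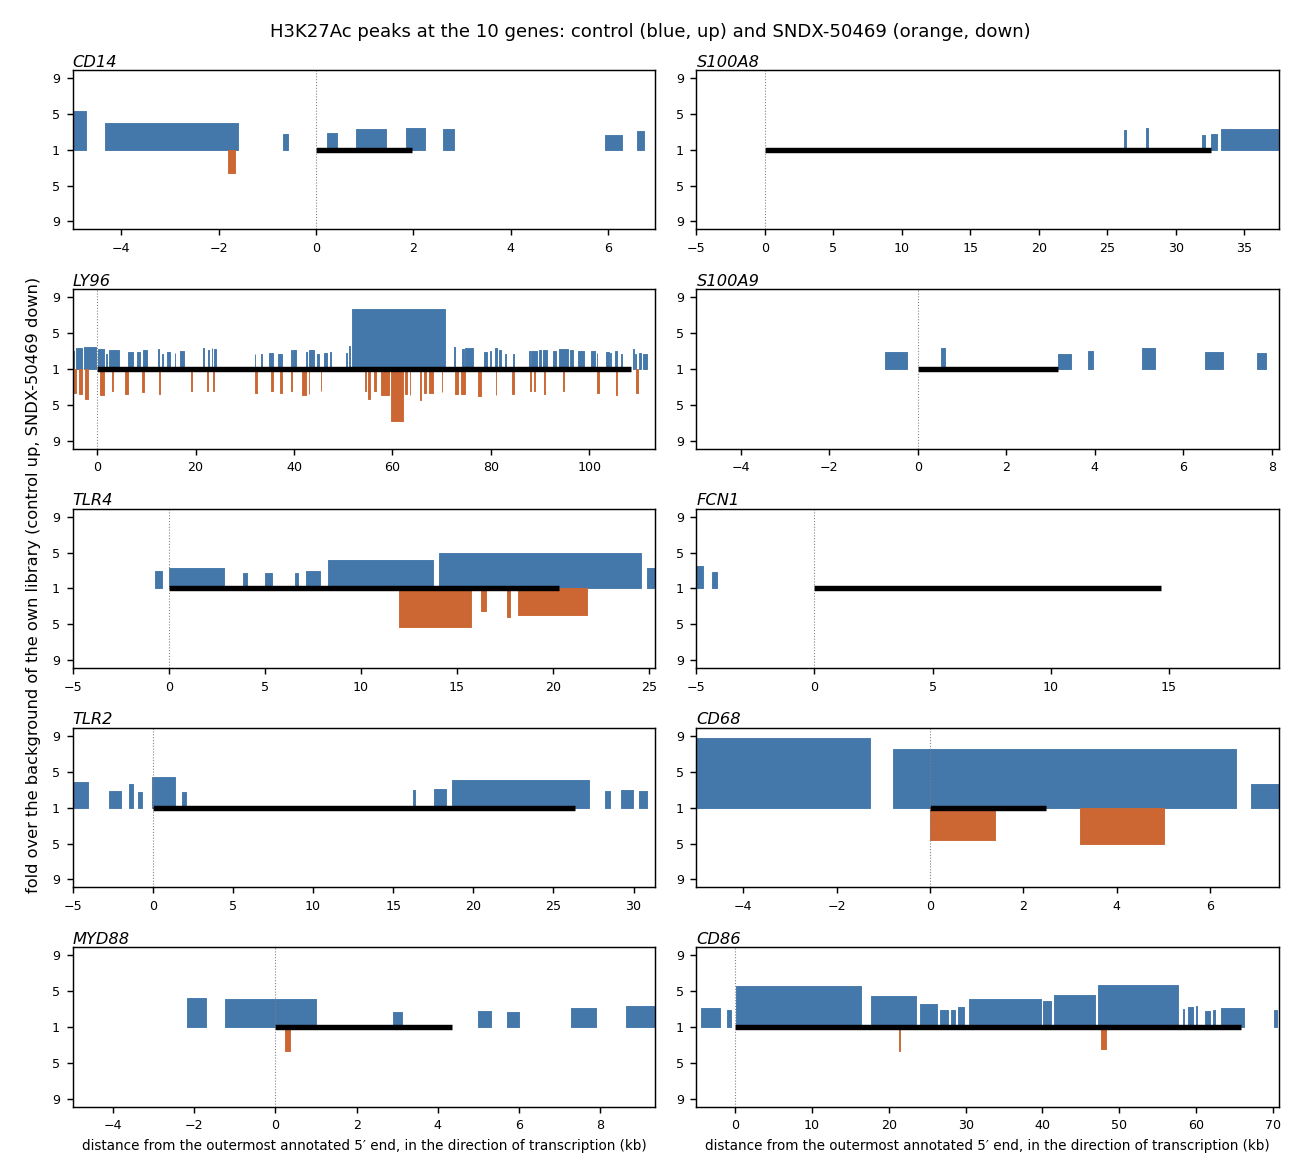
Peaks over the 10 genes by distance in kb from the outermost annotated 5′ end in the direction of transcription (black bar, the gene), with control peaks upward, SNDX-50469 peaks downward and the height the fold of the whole peak over the background of its own library. Treated peaks lie over the later part of TLR4, at the start of CD68 and all along LY96, and there are none at TLR2, S100A8, S100A9 and FCN1.

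S100A8 and S100A9, the calprotectin genes, lie close together on chromosome 1, at chr1:153390032-153422583 on the minus strand and chr1:153357854-153361023 on the plus strand. S100A8 had 5 control peaks over 5036 bp, 11.8% of a window made long by an annotated 5′ end far upstream, and S100A9 had 7 over 1868 bp, or 14.2%. Neither had a peak after treatment. The control peaks were weak. At S100A8 the widest, of 4142 bp, had a fold of 3.27 and lay downstream of the gene, and within 1 kb of its promoter starts 233 bp were covered. At S100A9 577 bp were covered within 1 kb of the start. At S100A8 1 control peak reached the treated cutoff of 3.93 and at S100A9 none did. Among genes of like control covered length, within 20%, 40.1% kept none beside S100A8 and 72.5% beside S100A9. S100A7A, which lies in the S100A8 window, had no peak in either list.

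FCN1, the M-ficolin gene, at chr9:134903232-134917912 on the minus strand, had the least control cover of the 10. Its 2 control peaks covered 458 bp, 1.86% of the window, more than 4.1 kb upstream of the start, and none lay in the gene or within 1 kb of its start. There was no treated peak. In this it differed from its surroundings, where control peaks covered 11.5% of positions within 1 Mb on each side and 10.3% of that cover was kept. Among genes of like control covered length, within 20%, 97.0% kept none.

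CD68, the lysosomal marker of monocytes and macrophages, at chr17:7579638-7582111 on the plus strand, had the fullest control cover. Its 3 control peaks covered 11658 bp, 93.5% of the window, and 2 treated peaks covered 3212 bp, or 25.7%. The kept share was 27.6%, and 2 of 3 control peaks were shared (20.8 to 93.9%). It was the one member with most of the cover near its start kept, 1004 of 1796 bp within 1 kb, or 55.9%. A control peak of 7350 bp spanned the start, with a fold of 7.56, and treated peaks covered 43.7% of it. The treated peak of 1401 bp began 3 bp before the start and ran into the gene.

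The window of CD68 is shared with neighbours. The other treated peak, of 1811 bp, lay downstream of CD68 at the start of MPDU1, which kept 26.4% of its own window. The 3212 bp of treated cover at MPDU1 are the same 2 peaks that count for CD68. The strongest control peak of the window, of 5547 bp and a fold of 8.78, lay over the upstream gene EIF4A1, a translation factor, which kept 27.2%. The 3911 bp of treated cover at EIF4A1 also include bases of these 2 treated peaks. Over 1 Mb on each side of CD68 13.4% was kept, and over 5 Mb 9.17%. With the gene body alone in place of the window, 56.5% of the CD68 cover was kept, so that it was no longer 2-fold lower.

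CD86, the costimulatory ligand for CD28, at chr3:122055362-122121136 on the plus strand, had the longest control cover of the 10 and nearly none after treatment. In control 19 peaks covered 60971 bp, 80.5% of the window, rank 371 among the 15634 genes with a control peak, and after SNDX-50469, 2 peaks covered 768 bp, or 1.01%. The kept share was 1.26% and the covered length was 79.4-fold lower, the largest ratio among the 6 members with a treated peak. The paper reports that CD86 mRNA was induced by SNDX-50469 in MOLM13 cells, at the dose and time used here. The lower peak cover therefore does not show lower expression of CD86, and expression was not tested here. A control peak of 16203 bp with a fold of 5.62 began 187 bp after the outer start, and nothing of it was kept. Another, of 10449 bp with a fold of 5.74, lay in the gene body, and 5.71% of it was covered after treatment, by a peak of 597 bp. The other treated peak, of 171 bp, lay 959 bp before the inner start, whose promoter was covered over its whole length in control and not after treatment. Of its control peaks 7 reached the treated cutoff, and 2 of these were shared. Among 267 genes of like control covered length, within 20%, 12.7% kept a smaller share. ILDR1, which begins in the same window on the other strand, kept 4.06%.

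By distance from the annotated starts, the members and all genes had different orders. Control peaks lay within 1 kb of a start at 9 of 10 members, FCN1 being the exception, beside 61.5% of 19675 genes with a known strand. Treated peaks lay there at 4 members, LY96, MYD88, CD68 and CD86, beside 32.0% of genes. Summed over the members, the kept share was 12.0% within 1 kb of the starts, 10.8% within 5 kb and 14.5% over the rest of the windows. Over all genes it was 33.5, 19.7 and 7.65%. Without LY96 the members kept 10.2, 7.90 and 10.1%. The value within 1 kb rests largely on CD68, with 1004 of the 1592 bp kept by all members there, and that over the rest on TLR4 and LY96.

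**Figure D4:**
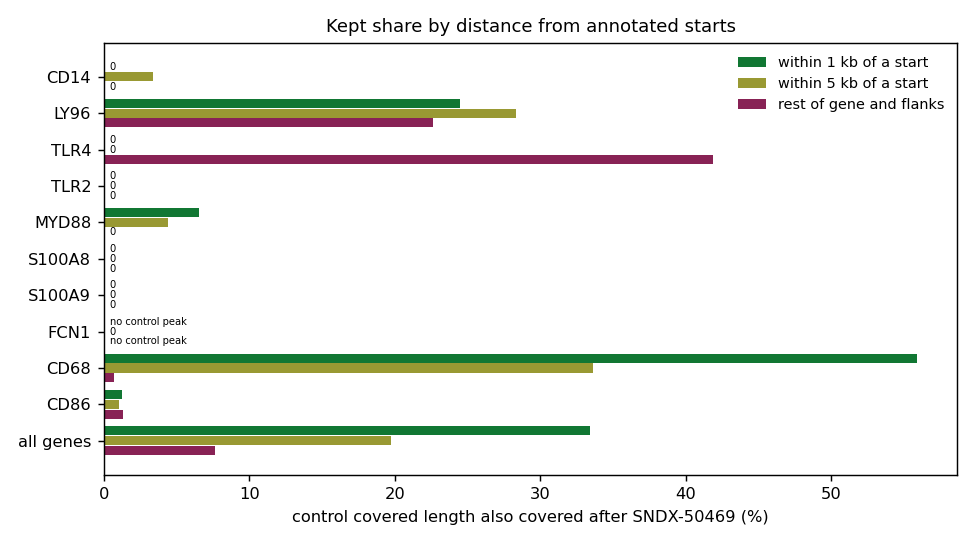
Kept share in percent of the control cover within 1 kb (green) and 5 kb (olive) of an annotated start and over the remaining part of the window (purple), for each member and for all genes with a known strand. CD68 kept 55.9% within 1 kb of its start, TLR4 kept 41.9% away from it and none near it.

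Other genes of LPS sensing and of the MYD88 pathway were taken as a list of 25, chosen like the members with earlier results of these data known. Of these, 24 had a control peak and 18 a treated peak, 23 had a covered length at least 2-fold lower after treatment and 7 kept none. Over all genes these marks were met by 78.0, 52.1, 93.7 and 44.8%, the last 2 among genes with a control peak. The median kept share of the list was 4.46%, beside 2.37% over all genes with a control peak. TAB2, an adaptor of the TAK1 kinase, had the longest control cover, 62307 bp, and kept 4.32%. CHUK, which codes for the kinase IKK-alpha, kept the most, 37.9% of 17704 bp. LY86, named after its values were seen because its product MD-1 is the relative of MD-2, kept 18.7% of 60630 bp. A list of 9 genes held the other Toll-like receptors and their chaperone UNC93B1, of which 8 had a control peak, 3 a treated peak and 5 kept none. TLR9, a receptor for bacterial DNA inside endosomes, had both the longest control cover and the highest kept share, 34.9% of 13998 bp. UNC93B1 kept 30.7% and TLR6, which pairs with TLR2, 7.99%, and these are the other genes of that list with a treated peak.

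Other pattern recognition genes, 16 in all, each had a control peak, and 10 had a treated one. Their median kept share was 13.0%, with 6 at none. Over all genes 78.0% had a control peak and 52.1% a treated one. Among genes with a control peak the median was 2.37%, and 44.8% kept none. RIPK2 of this list and IKBKB of the LPS list, named after their values were seen, lie on chromosome 8. They kept 11.5% and 14.35%. NOD2, a sensor of bacterial cell wall fragments, had the longest control cover, 38040 bp, of which 25.6% was kept. STING1, the adaptor for DNA sensing, kept 56.5% of 16531 bp. Of 5 other S100 genes, all had a control peak and 3 a treated one. S100A10 had 16988 bp in control and kept 1.40%, and S100A11 kept 21.1% of 14499 bp. Of the ficolins, FCN3 had 6949 bp in control and none after treatment, and FCN2 had no peak in control. Of 5 relatives and partners of CD86, 4 had a control peak and 1, CD83, a treated one, with 2.23% of 12477 bp kept. The median kept share was 0 in this list and 1.40% in the S100 list.

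The labelled cell type was checked with marker lists. Monocyte markers and myeloid factors, 24 genes together, had a control peak at 22 and a treated peak at 17, and kept 22.4% of their summed control cover. Their median kept share was 8.46%, and 5 of the 22 kept none. Over all protein-coding genes 78.0% had a control peak and 52.1% a treated one, and 11.6% of the summed cover was kept. Markers of other cell types (T, B, NK, erythroid, epithelial and liver cells), 22 genes together, had a control peak at 16 and a treated peak at 5, and kept 4.03%. Their median was 0%, and 13 of the 16 kept none. The B cell list stood apart among these, with 21.9% kept, near the 20.4% of the monocyte list alone. A control peak within 5 kb of a gene was thus common for markers of other cell types too, and does not show that a gene is expressed. CSF1R, the receptor of the growth factor M-CSF, had the longest control cover of the monocyte list, 52599 bp, and kept 6.36%. TYROBP, an adaptor of myeloid receptors, kept 86.3% of 13368 bp. All 4 myeloid factors kept a part, from 6.20% of 32913 bp at IRF8 to 68.1% of 12601 bp at CEBPA. The other cell type markers with a treated peak were CD79A, MS4A1, PAX5, CDH1 and APOA1.

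**Figure D5:**
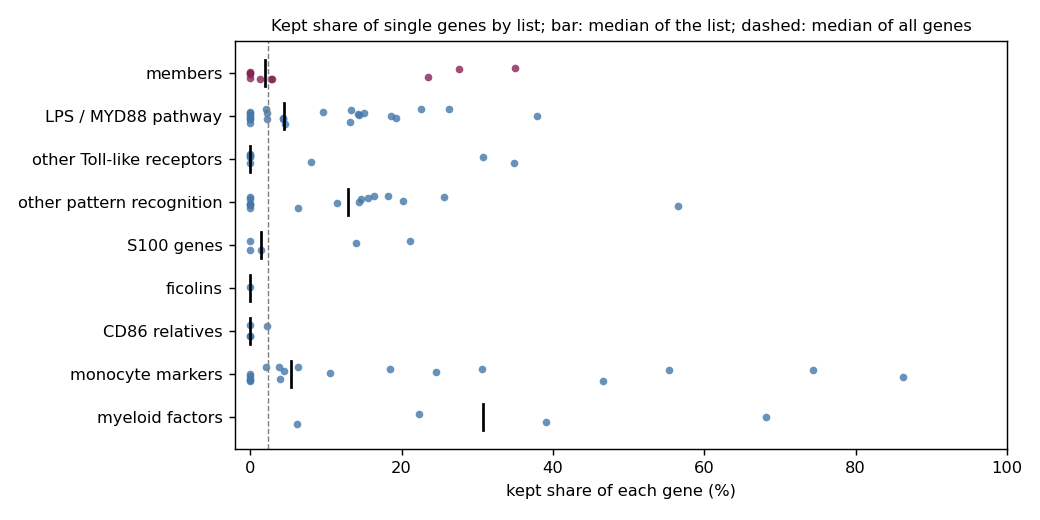
Kept share in percent of each gene with a control peak, for the 10 members (purple) and for each list of other genes (blue), with the median of the list as a black bar and the median of all protein-coding genes, 2.37%, as a dashed line. The members have 3 genes between 23.4 and 35.0% and 7 at or below 2.90%.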

How the data were processed

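H3K27Ac was profiled by ChIPmentation, in which the transposase Tn5 adds adapters to immunoprecipitated chromatin, in 1 control and 1 SNDX-50469 library of MOLM13 cells. The submitters' processing notes name Trim Galore 0.6.5, Bowtie2 2.3.4.2, Picard 2.9.0, MACS2 2.1.2 and GRCh38, with no options, and the supplementary methods name TopHat2, hg38 and diffReps. Whether the inputs entered the calling is not given in the sources used here. Broad peaks were deposited by the authors as a separate list for each library, with no pooling. Each deposited peak has a ratio (fold over background), a −log10 p, a −log10 q and a score, which the authors' files hold as 10 times the −log10 q and which was not used. These values are relative to the library's own background, so positions were compared between lists and strengths only within a list, apart from common cutoffs. Depth per library is unknown, which limits what the missing of a peak can show.

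Computations used numpy 2.4.6, scipy 1.17.1 and pandas 2.3.3 under Python 3.11.15, and were tested on simulated peaks. Genes, and promoters with their starts, came from RefSeq (GRCh38.p14). Where that table had no promoter, the outermost 5′ end was used, with the strand taken by symbol from GENCODE. A peak was shared when it had at least 1 bp in common with the other list. Named are all members, the genes overlapping their windows, and from each list the gene with the longest control cover and the one with the highest kept share among those with at least 2 kb covered; of other cell types, genes with a treated peak. Others are marked as chosen after their values were seen. The members and lists were chosen with earlier results of these data known. With 1 library per condition no test was made. The alternatives were other windows, cutoffs and ways of counting.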

Additional observations from a re-analysis of the deposited data

How the results depend on the processing

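The 5 summary values were recomputed under 10 alternatives. A share was counted as moved when it left the Wilson 95% interval around the reported share with the control peaks as number, and a count when it changed by more than 1.5 times. By these wide marks 14 of 46 values moved, and shares inside them could still change several-fold. Cover within 5 kb of the starts alone gave a median kept share of 0.516%. At a −log10 q of at least 5, where 5 members had control cover left, all 5 were at least 2-fold lower, the summed kept share was 3.49%, the median was 0% and 1 member had a treated peak. LY96 then kept 12.4%, and TLR4 and CD68 kept none. With the strongest control peaks up to the same summed length, the summed share was 34.3% and the median 33.2%, with 0 members keeping none and 1 at least 2-fold lower. Only CD68 and LY96 had control cover then. Counting peaks in place of length gave 25.8% and a median of 12.4%, with 22.2% at CD14, 14.3% at MYD88 and 10.5% at CD86. Counting only control peaks at least 50% covered gave 6.06%, a median of 0% and 8 members with none kept. At the common −log10 p cutoff the median was 4.31% and 8 of the 9 members with control cover left were at least 2-fold lower, with the treated cover of LY96 at 82.4% of control. The gene body alone gave a median of 1.34% and 8 of 9 members at least 2-fold lower, with 10.8% kept at MYD88 and 0% at CD14. Without LY96 the summed share was 9.27% and the median 1.26%. No ratio of a single member that could be computed passed to a longer treated than control cover, but ratios against no control cover, at CD14, TLR4, MYD88 and CD86 with lists of the same length, are not among them. No paired analysis was possible because there is a single library of control and of treated cells. Read depth, which is unknown, could not be varied.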
